A study of Mus musculus with 6 samples.

Results

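The interleukin-6 (IL-6) family was described through 10 genes chosen by name from the 34745 genes of the deposited table. They are the cytokines Il6, Il11, Osm and Lif, the receptor genes Il6ra, Il11ra1, Osmr, Lifr and Il6st, and the inhibitor Socs3. The samples were colon tissue from age-matched male mice, all given dextran sulfate sodium (DSS), a polysaccharide that damages the gut lining and brings on colitis, for 6 days. Of the 6 libraries, 3 came from TRPC-hepta knockout mice, in which the 7 TRPC cation channels are all missing according to the series title, and 3 from TRPC-hepta control mice. The sources used here state neither the age, nor the strain background, nor the genotype behind the name of the controls, and no mice without DSS were analysed here. The design text of the series speaks of duplicates, whereas 3 samples are listed for each group. Since no label says that replicates are separate animals, the p-values reflect only the spread between these libraries, which may be technical.

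IL-6 family cytokines signal through receptor complexes that contain gp130, the protein of Il6st. IL-6 and IL-11 bind their own chains (Il6ra and Il11ra1) and then pair gp130 molecules, whereas oncostatin M (Osm) and leukemia inhibitory factor (Lif) join gp130 to the oncostatin M receptor (Osmr) or the LIF receptor (Lifr). The complexes activate JAK kinases and the transcription factor STAT3. STAT3 induces Socs3, whose product binds gp130 and shuts the signal down. In the injured colon this pathway is known for its part in epithelial survival and regrowth and in the inflammatory programme of stromal cells.

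RefSeq promoters on GRCm38.p6 were at hand for 9 of the 10 members, in 12 windows, and the 250 bases before each annotated start were searched on both strands for an NF-kB form (GGG and TTTCC with 2 free bases, N, between them), TGANTCA (AP-1), TTCNNNGAA (STAT) and TTGCNNAA (C/EBP). The windows with a match, those of Il6, Il11, Lif and Socs3, are printed 5′ to 3′ on the strand of the gene, with the matches in capitals. They lie at chr5:30012864-30013113 (plus strand) for Il6, chr7:4778142-4778391 (minus) for Il11, chr11:4257318-4257567 (plus) for Lif and chr11:117969367-117969616 (minus) for Socs3. The Il11 and Socs3 windows lie within the span that the table gives these genes, since the RefSeq starts used here are downstream of the outermost one.
Il6: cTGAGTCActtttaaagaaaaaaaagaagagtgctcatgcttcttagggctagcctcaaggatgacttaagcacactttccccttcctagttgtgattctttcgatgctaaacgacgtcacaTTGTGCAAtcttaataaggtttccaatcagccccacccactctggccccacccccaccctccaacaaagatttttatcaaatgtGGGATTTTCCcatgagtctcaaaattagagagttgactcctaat
Il11: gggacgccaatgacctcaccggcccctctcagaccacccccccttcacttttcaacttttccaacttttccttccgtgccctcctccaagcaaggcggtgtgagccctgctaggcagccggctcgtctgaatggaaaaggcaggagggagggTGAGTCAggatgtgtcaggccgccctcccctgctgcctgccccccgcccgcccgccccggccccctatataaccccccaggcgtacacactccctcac
Lif: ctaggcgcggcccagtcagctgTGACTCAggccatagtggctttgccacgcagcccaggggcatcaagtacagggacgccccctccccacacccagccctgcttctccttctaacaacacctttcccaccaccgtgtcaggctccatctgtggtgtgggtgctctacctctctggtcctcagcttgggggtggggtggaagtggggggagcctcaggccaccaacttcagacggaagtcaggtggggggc
Socs3: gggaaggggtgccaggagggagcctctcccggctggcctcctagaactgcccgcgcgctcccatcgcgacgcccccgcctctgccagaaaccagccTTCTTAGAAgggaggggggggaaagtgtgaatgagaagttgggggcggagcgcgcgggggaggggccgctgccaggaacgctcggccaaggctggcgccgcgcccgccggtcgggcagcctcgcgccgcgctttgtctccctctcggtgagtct
The Il6 window held an AP-1, a C/EBP and an NF-kB match, in that order towards the start, the last at 44 to 35 bases before it. The Il11 and Lif windows each held an AP-1 match, at 98 to 92 and 228 to 222 bases before the start, and the Socs3 window a STAT match at 154 to 146 bases before it. None of these matches overlapped another. Among 32851 promoter windows of the same length, 1.41% held the NF-kB form, 6.75% the AP-1, 7.02% the STAT and 9.56% the C/EBP motif. A match describes letters and is not a bound site. The other windows of the 9 members, with a further start of Il11 among them, had no match to these 4 patterns.

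The libraries held 13816295 to 17584992 counted reads, and levels are given as CPM, read counts scaled to a common library size after TMM normalization, on which 3 reads in a library equal 0.174 to 0.219 CPM. In CPM, every member had a larger standard deviation (SD) over the knockout than over the control libraries, and also a higher mean. Knockout replicate 3 came near a weighted sum of the other knockout libraries, with weights of 0.497 for the reads of replicate 1 and 0.594 for those of replicate 2: squared deviations had a median of 2.62 times counting noise, against 6.77 to 9.30 when each control library was fitted on the other controls. Fitted in the same way, knockout replicates 1 and 2 gave 3.40 and 3.09. Each of these fits put a negative weight on the other of the 2 libraries (-0.888 and -0.647). If replicate 3 shares material with the others, tests that use it treat dependent libraries as independent, so the counts of calls among the members, the STAT3 targets and the marker lists are also given without it. Whole-gene counts do not check the deletion, because no source used here names the deleted parts: 5 of the 7 Trpc genes had reads in a knockout library. Of the colon epithelial markers (Epcam, Krt8, Vil1, Cdx2 and the like), all 10 were read in both groups.

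All 10 members passed the filter on low counts and had a positive log2 fold change, knockout against control, as did 51.6% of the 15819 genes tested. The median was 1.91 over the members and 0.01 over all genes tested. Il6 and Lifr rose (edgeR quasi-likelihood, with a Benjamini-Hochberg adjusted p under 0.05), 2 of 10 members, where 1.09% of all genes tested were called higher, 0.67% lower and 1.76% in either direction. At an unadjusted p under 0.05 there were 6 members, all higher in the knockout, beside 9.48% of all genes higher and 16.0% in either direction. The groups did not overlap for 6 members, each higher in the knockout, beside 11.2% of all genes. In these bulk samples, more cells of a type and more RNA per cell cannot be told apart.

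The calls depended on the libraries and the tool. Without knockout replicate 3, 0 members were called (Il6 at adjusted p = 0.0853 and Lifr at 0.195, edgeR), beside 0.0372% of all genes called higher. Without control replicate 1, 2 or 3, 0 members were called as well, beside 0.0988%, 0.0494% and 0.068% of all genes. Il6 and Lifr were called without knockout replicate 1, beside 1.14%, and 7 members (all but Lif, Il11ra1 and Il6st) without knockout replicate 2, beside 8.07%. DESeq2 called 6 members (Il6, Il11, Osm, Osmr, Lifr and Socs3), beside 5.56%. Without the filter on low counts edgeR called Il6, Il11, Lifr and Socs3, beside 0.854%, and with RLE size factors Il6 and Lifr, beside 1.01%. On the FPKM values, limma called Il6 alone, beside 1.01% of all genes with a pseudocount of 1 and 1.18% with 0.1. With a replicate block 0 members were called, beside 0.0253%.

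**Figure D1:**
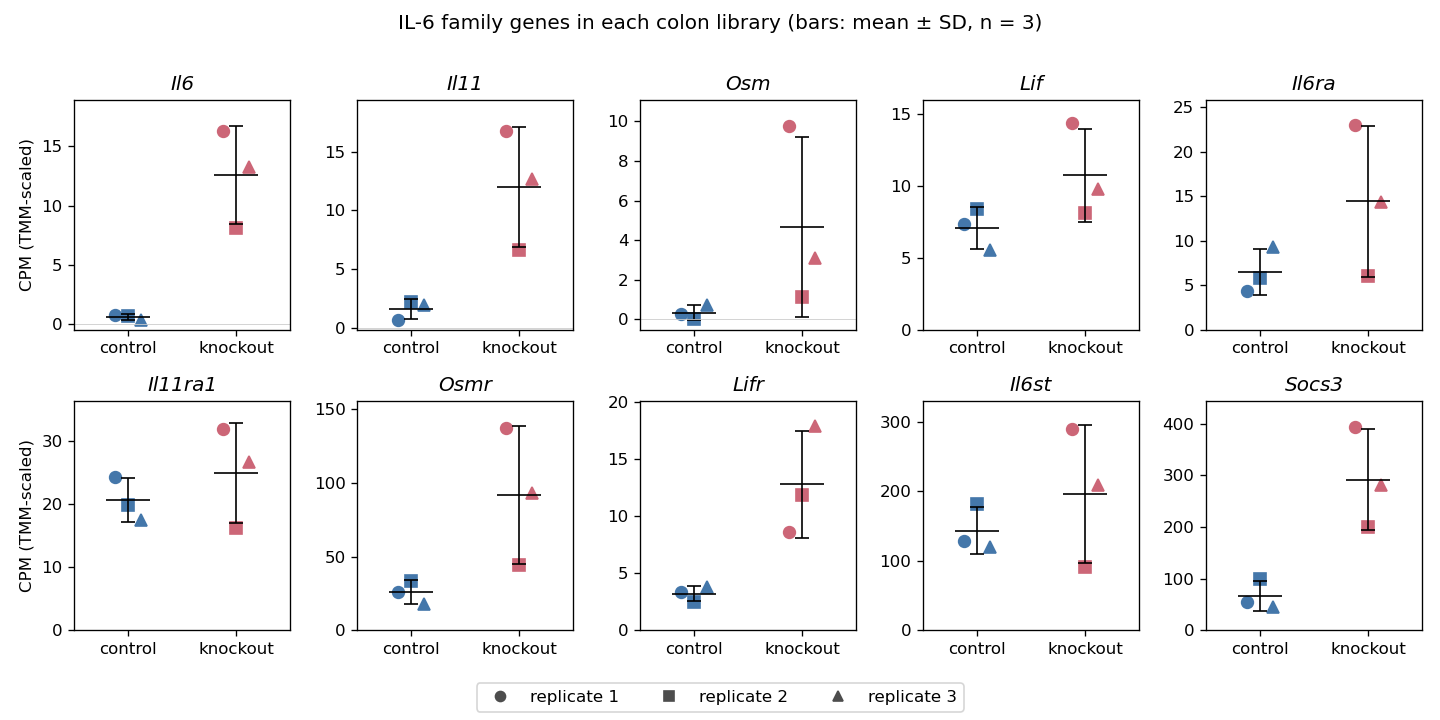
CPM of each member gene in the 3 control (blue) and 3 knockout (red) libraries, each panel with its own linear axis and the marker shape giving the replicate; bars are mean ± SD (n = 3 each). In 9 of 10 panels knockout replicate 1 is the highest knockout library and replicate 2 the lowest, and in the Lifr panel replicate 3 is the highest.

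Among the cytokines, Il6 (chromosome 5, 30013114 to 30019981, plus strand, 4 exon blocks) stood at 0.803, 0.694 and 0.365 CPM in control replicates 1, 2 and 3 and at 16.3, 8.10 and 13.3 CPM in knockout replicates 1, 2 and 3. The groups were far apart, with 31 reads summed over the control and 572 summed over the knockout libraries. The log2 fold change was 4.32 ± 0.43 (SE; edgeR, adjusted p = 0.0118), the largest of the 10 members. Relative to the control mean, the knockout libraries lay 26.2-fold, 13.0-fold and 21.4-fold higher. IL-6 is made by macrophages, fibroblasts and other cells and drives the acute-phase response.

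Il11 (chromosome 7, 4772373 to 4782857, minus strand), a cytokine made largely by fibroblasts, stood at 0.680, 2.26 and 1.94 CPM in the control and 16.8, 6.64 and 12.7 CPM in the knockout. The lowest knockout library was above the highest control library. Its log2 fold change was 2.88 ± 0.54 (SE), at an adjusted p = 0.0588 (edgeR) that missed the threshold. DESeq2 gave 9.15e-06, and edgeR without the filter on low counts gave 0.0457. Without knockout replicate 3 the log2 fold change was 2.84 (edgeR, adjusted p = 0.236).

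Osm (chromosome 11, 4236420 to 4241026, plus strand), which is made by neutrophils, macrophages and T cells, stood at 0.247, 0 and 0.729 CPM in the control and 9.77, 1.09 and 3.12 CPM in the knockout. The 0 in control replicate 2 allows up to 0.174 CPM (3 reads, counting error only). The counting intervals of knockout replicate 2 (15 reads, 0.613 to 1.81 CPM, exact Poisson, 95%) and control replicate 3 (12 reads, 0.377 to 1.27 CPM) overlapped, whereas knockout replicate 1 (149 reads) lay 8.93-fold above knockout replicate 2. Its log2 fold change was 3.82 ± 1.17 (SE; edgeR, adjusted p = 0.175). It ranged from 2.68 to 5.18 as single libraries were left out.

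Lif (chromosome 11, 4257557 to 4272514, plus strand) lies 16530 bases beyond Osm on the same strand with no annotated gene of the table between them. LIF is known for keeping stem cells undifferentiated and for its part in the acute-phase response. It stood at 7.35, 8.39 and 5.53 CPM in the control and 14.4, 8.10 and 9.79 CPM in the knockout. The groups overlapped through knockout replicate 2, and the log2 fold change was 0.60 ± 0.29 (SE; edgeR, adjusted p = 0.383).

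Of the receptor genes, Lifr (chromosome 15, 7129559 to 7197489, plus strand) was the only one called by edgeR with all libraries. It stood at 3.34, 2.49 and 3.77 CPM in the control and 8.66, 11.9 and 17.9 CPM in the knockout. Every knockout library was above every control library. The log2 fold change was 2.0 ± 0.34 (SE; adjusted p = 0.0457, edgeR), and it was 1.68 without knockout replicate 3. Lifr did not follow the order of the other members: knockout replicate 3 was the highest, as for 11.9% of all genes, and held 287 reads where the weighted sum of replicates 1 and 2 gave 162.5. That ratio of 1.77 was reached or passed by 0.516% of the 13172 genes whose weighted sum gave 50 reads or more. For the other members the same ratio lay between 0.603 (Osm) and 1.15 (Il11ra1).

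Osmr (chromosome 15, 6813577 to 6874969, minus strand), the oncostatin M receptor of stromal and endothelial cells, lies 254589 bases from Lifr by the positions of the table, with 1 annotated gene, which had no reads, in the gap. Osmr stood at 26.3, 33.8 and 18.1 CPM in the control and 137.7, 44.4 and 93.3 CPM in the knockout. The groups did not overlap, though knockout replicate 2 was 1.71-fold and replicate 1 was 5.28-fold above the control mean. Its log2 fold change was 1.82 ± 0.43 (SE; edgeR, adjusted p = 0.101). By edgeR the adjusted p was 0.0093 without knockout replicate 2, and 0.127 to 0.319 on leaving out any other single library.

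Il6st (chromosome 13, 112464070 to 112510086, plus strand) had the most reads of the receptor genes, at 128.7, 182.5 and 119.5 CPM in the control and 289.2, 91.1 and 208.9 CPM in the knockout. Knockout replicate 2 lay below every control library and the other knockout libraries above every one of them. The log2 fold change was 0.45 ± 0.41 (SE; edgeR, adjusted p = 0.66). Il6ra (chromosome 3, 89864059 to 89913196, minus strand), the chain that binds IL-6, stood at 4.32, 5.84 and 9.30 CPM in the control and 23.0, 5.98 and 14.3 CPM in the knockout. Knockout replicate 2 was within the control range, and the log2 fold change was 1.15 ± 0.52 (SE; edgeR, adjusted p = 0.344).

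Il11ra1 (chromosome 4, 41699989 to 41769474, plus strand), the chain that binds IL-11, stood at 24.3, 19.9 and 17.5 CPM in the control and 31.8, 16.2 and 26.7 CPM in the knockout. The groups overlapped, and the log2 fold change was 0.28 ± 0.27 (SE; edgeR, adjusted p = 0.694). Its value is uncertain, because its locus overlaps 6 other genes of the table, 5 of them with reads and most on the opposite strand, and because the near-identical copy Il11ra2 can take or lend reads. No source used here states how strand and shared reads were counted. Of the 3 entries of Il11ra2, the 1 with reads summed to 21 in the control and 18 in the knockout.

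Because all receptor genes except Lifr ranked alike across the knockout libraries, their levels were also set against Il6st within each library, on the FPKM scale, which divides by gene length. This comparison was chosen after the values were seen, and it has no test. The ratio of Osmr to Il6st was 0.249, 0.226 and 0.185 in the control and 0.582, 0.596 and 0.545 in the knockout libraries (mean 0.220 ± 0.033 against 0.574 ± 0.026, SD, n = 3 each). The ratio was close to level across the knockout libraries, while Il6st itself spanned 3.17-fold between replicates 1 and 2. Of all genes tested, 5.75% had a ratio to Il6st that was higher in every knockout library than in every control library. The ratios of Il6ra, Il11ra1 and Lifr to Il6st overlapped between the groups. That of Lifr ranged from 0.0200 to 0.0463 in the control and from 0.0439 to 0.192 in the knockout libraries.

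**Figure D2:**
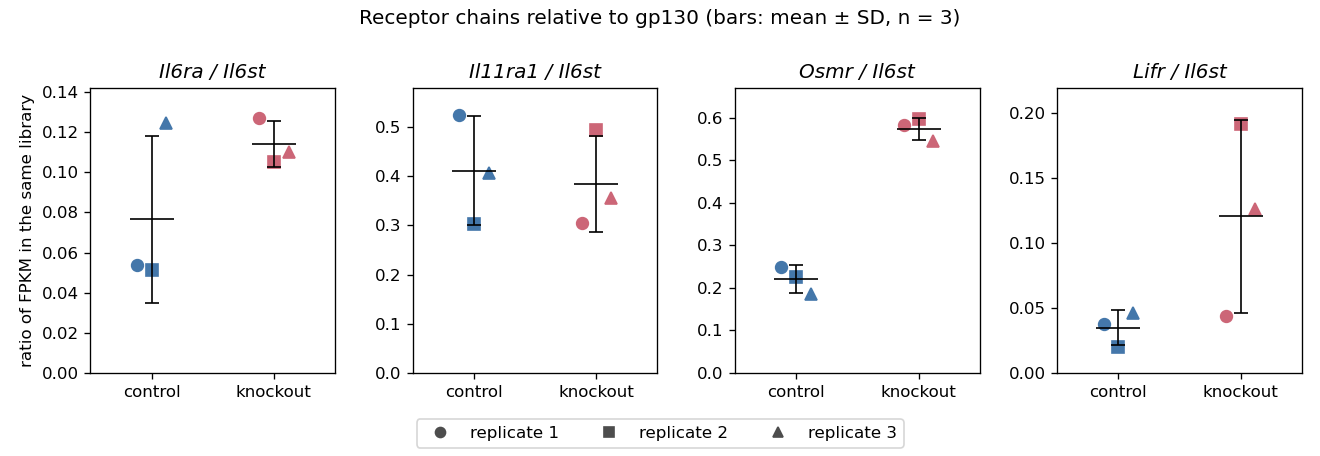
FPKM of 4 receptor genes divided by the FPKM of Il6st in the same library, for 3 control (blue) and 3 knockout (red) libraries; axes start at 0, and bars are mean ± SD (n = 3 each). The Osmr ratio lies at 0.185 to 0.249 in the control and 0.545 to 0.596 in the knockout libraries, and the other ratios overlap.

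Socs3 (chromosome 11, 117966079 to 117970047, minus strand), the feedback inhibitor, stood at 53.9, 98.96 and 44.8 CPM in the control and 393.6, 199.0 and 280.9 CPM in the knockout. Every knockout library was above every control library, by 5.97-fold, 3.02-fold and 4.26-fold over the control mean. The log2 fold change was 2.14 ± 0.38 (SE), at an adjusted p = 0.0521 (edgeR) that missed the threshold. DESeq2 gave 8.16e-06 and edgeR without the filter on low counts 0.0377. Leaving out single libraries gave log2 fold changes of 1.86 to 2.55.

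By FPKM, Socs3 had the highest level of the 10 members in both groups (19.6 ± 8.8 in the control and 92.5 ± 37.7 in the knockout, SD, n = 3 each), and its range did not overlap that of Il6st, next in order, in either group. In the control, Il11ra1 followed, and then Osmr and Lif, Il11 and Il6ra, Lifr, and last Il6 and Osm. The ranges of Osmr and Lif overlapped, as did those of Il11 and Il6ra and those of Il6 and Osm. The range of Lifr (0.205 to 0.308 FPKM) overlapped those of Il11 (0.260 to 0.881) and Osm (0 to 0.279). Those of Il11 and Osm also overlapped, so the order from Il11 downwards is not firm. In the knockout the order below Socs3 was Il6st, Osmr, Il11, Il11ra1, Il6, Lif, Osm, Il6ra and Lifr, and the range of each overlapped that of its neighbour. Il11 stood at 0.632 ± 0.328 FPKM in the control and 5.02 ± 2.44 in the knockout, and Il6 at 0.148 ± 0.054 and 3.21 ± 1.27.

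The 3 knockout libraries ranked alike for most members. For 9 of 10, replicate 1 was the highest, replicate 3 in between and replicate 2 the lowest, the order that 35.8% of all genes showed. Replicates 1 and 3 were above the control range for all 10 members. Replicate 2 was above it for 6 (Il6, Il11, Osm, Osmr, Lifr and Socs3), within it for 2 (Lif and Il6ra) and below it for 2 (Il11ra1 and Il6st).

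Marker lists of other cell types moved with these libraries. Among all genes tested, edgeR called 1.09% higher and 0.67% lower in the knockout, and DESeq2 5.56% and 3.63%. In either direction, 16.0% were under an unadjusted p of 0.05 (edgeR). Against the control mean, the median of the neutrophil markers that passed the filter on low counts was higher in the knockout. On the log2 scale it was higher by 4.29 (replicate 1), 1.96 (replicate 2) and 3.63 (replicate 3), in the same order as Osm and Il6. Of the 10 neutrophil markers 8 passed the filter on low counts, and of these 5 rose and 0 fell. S100a8, S100a9, Mmp8, Clec4d, Cxcr2 and Retnlg had 6 reads or fewer in each control library. They passed that filter only through the knockout libraries, so a fall could not have been seen for them. Without overlap between the groups, 7 of 10 were higher in the knockout, beside 11.2% of all genes tested. S100a8, among these 7, stood at 0.371, 0.289 and 0.122 CPM in the control and 79.4, 10.6 and 46.3 CPM in the knockout. The summed level of the list was 61.0 to 127.2 CPM in the control and 127.1 to 721.8 CPM in the knockout, but most of the control sum was Ly6g, which overlapped between the groups at 121.5, 124.8 and 57.98 CPM in the control and 446.0, 88.9 and 253.8 CPM in the knockout. Cxcr2, Mpo and Retnlg were at 0 in every control library and Elane in all 6. Monocyte and macrophage markers stood at 129.0 to 156.6 CPM in the control and 309.4 to 393.8 CPM in the knockout (2 of 10 rose, DESeq2 called 8, all 10 were under an unadjusted p of 0.05, and none was at 0). Fibroblast markers were at 1043 to 1327 and at 3441, 874.8 and 2075 CPM in knockout replicates 1, 2 and 3, endothelial markers at 62.3 to 79.7 and at 217.5, 58.2 and 133.0 CPM, and enteric neuron and glia markers at 138.1 to 181.6 and at 521.1, 149.5 and 317.5 CPM. Of these 3 lists (10, 6 and 7 genes, none at 0), 0 single members passed the threshold of edgeR, while DESeq2 called 1 in each list and 6, 2 and 3 were under an unadjusted p of 0.05. The fibroblast markers Fap and Postn were lower in the knockout without overlap, and Postn is among the 6. Postn stood at 273.8, 235.5 and 205.4 CPM in the control and 175.0, 69.5 and 120.8 CPM in the knockout. The other 8 fibroblast markers and all endothelial and enteric neuron and glia markers had positive log2 fold changes. Epithelial markers went the other way, at 21631 to 22104 CPM in the control and 8668, 29446 and 19453 CPM in knockout replicates 1, 2 and 3 (0 of 10 past the threshold of edgeR, with 1 at an unadjusted p under 0.05, DESeq2 calling 1, none at 0). Smooth muscle markers were at 8265 to 11695 CPM in the control and 1732 to 3704 CPM in the knockout (4 of 8 fell, DESeq2 called all 8, all 8 were under an unadjusted p of 0.05, and none was at 0). For the neutrophil list, DESeq2 called 7 and the same number were under an unadjusted p of 0.05. Leaving out knockout replicate 3, control replicate 1 or control replicate 2 left 0 calls in each of the neutrophil, monocyte and macrophage, and smooth muscle lists, and leaving out control replicate 3 left 0, 0 and 2. Without knockout replicate 2 these lists had 8, 7 and 8 calls, beside 8.07% of all genes called higher and 3.14% lower. Without knockout replicate 1 they had 4, 2 and 8, beside 1.14% and 0.852%. The fibroblast, endothelial and enteric neuron and glia lists had 8, 3 and 4 calls without knockout replicate 2, all higher in the knockout, beside the same 8.07%. Leaving out any other single library gave 0 calls in these 3 lists. The T and NK cell, B and plasma cell, mast cell and eosinophil, adipocyte and squamous epithelium lists hold 8, 7, 6, 5 and 6 genes. Of these, 7, 7, 5, 4 and 1 passed the filter on low counts and were tested. With all libraries 0 passed the threshold of edgeR, while 0, 2, 3, 3 and 0 were under an unadjusted p of 0.05. DESeq2 called 0, 1, 1, 2 and 0, the 2 adipocyte genes lower in the knockout and the others higher. The part of these lists in the members' values was not tested.

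**Figure D3:**
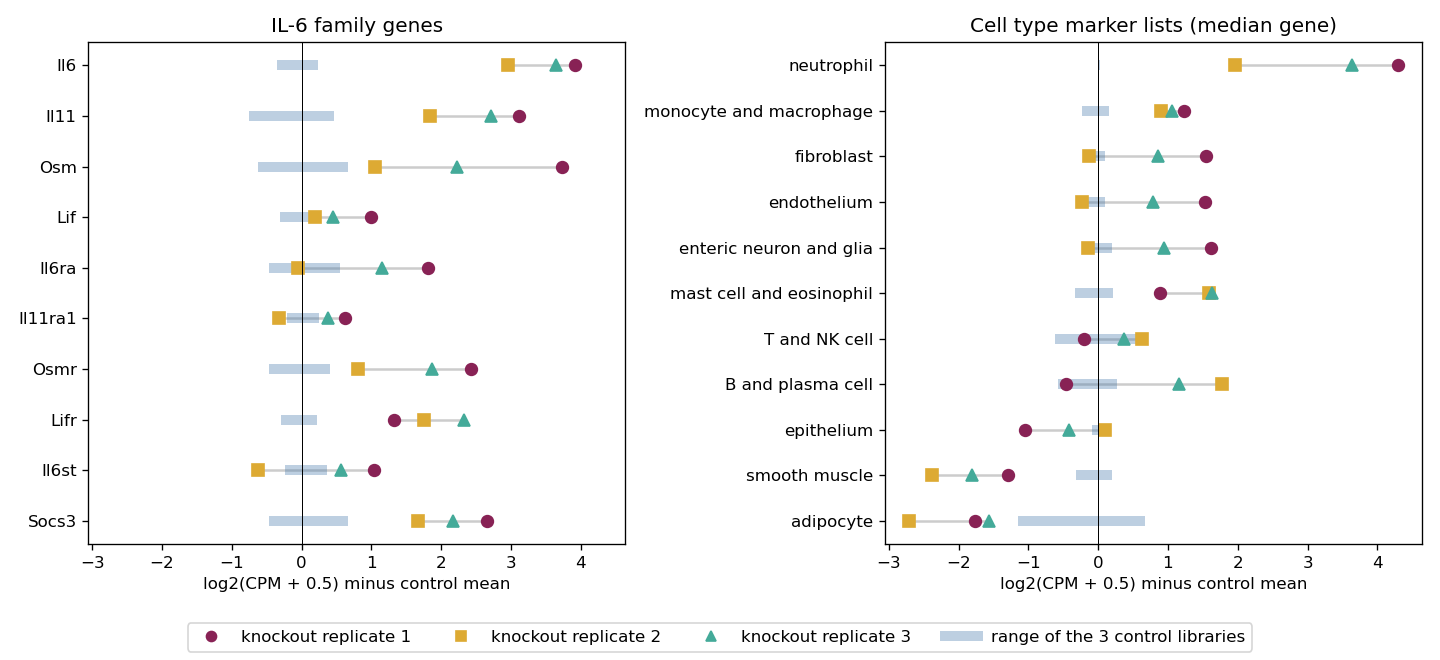
Log2(CPM + 0.5) minus the mean of the control libraries for each member gene (left) and for the median gene of each cell type list but the squamous one (right), with 1 marker per knockout replicate and a blue band for the range of the 3 control libraries. Each median is over the genes of the list that passed the filter on low counts. Replicate 1 lies right of replicate 2 for 9 of 10 members and for neutrophil, fibroblast and endothelial markers, and left of it for epithelial and B and plasma cell markers.

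Of 12 other ligand and receptor genes of the family, 6 passed the filter and 0 were past the threshold of edgeR (DESeq2 called 1, and 3 were under an unadjusted p of 0.05). Beside this and the lists below, DESeq2 called 5.56% of all genes tested higher and 3.63% lower. Under that unadjusted p were 16.0% of all genes. Il27ra, a receptor chain that pairs with gp130 to bind IL-27, stood at 1.54, 1.504 and 1.94 CPM in the control and 3.28, 4.23 and 3.803 CPM in the knockout, without overlap (log2 fold change 1.18 ± 0.29, SE; edgeR, adjusted p = 0.106). Ebi3, a subunit of IL-27, and Clcf1, a ligand of the ciliary neurotrophic factor receptor, had log2 fold changes of 1.86 ± 0.58 and 1.27 ± 0.41 (SE). Ctf2 and Il31 had no reads in any library, which allows up to 0.174 to 0.219 CPM in a library.

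The machinery between receptor and nucleus was not called. Of 12 genes of signal transduction, 0 were past the threshold of edgeR (DESeq2 called 0, and 1 was under an unadjusted p of 0.05), and the median log2 fold change was -0.11. Without overlap between the groups, 4 (Jak2 and Gab1 among them) were lower in the knockout and 0 higher. Over all genes tested these shares were 10.4% and 11.2%. Jak2, a kinase bound to gp130, had the smallest p, with 190, 171 and 145 CPM in the control and 120.02, 132 and 124 CPM in the knockout (log2 fold change -0.43 ± 0.15, SE; edgeR, adjusted p = 0.22). Stat3 stood at 192, 242 and 181 CPM in the control and 410.4, 208 and 285 CPM in the knockout, which overlapped, with a log2 fold change of 0.55 ± 0.27 (SE; edgeR, adjusted p = 0.382). Gab1, an adaptor of the pathway, had -0.38 ± 0.18.

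Of 6 other feedback inhibitors, 0 were past the threshold of edgeR (DESeq2 called 1, and 3 were under an unadjusted p of 0.05), with a median log2 fold change of 0.31. Cish, a relative of Socs3 that restrains STAT5, stood at 13.6, 19.4 and 17.9 CPM in the control and 35.4, 25.2 and 30.2 CPM in the knockout (log2 fold change 0.83 ± 0.21, SE; edgeR, adjusted p = 0.111). Socs1 and the phosphatase gene Ptpn2 had log2 fold changes of 0.61 ± 0.24 and 0.80 ± 0.33 (SE). Of 4 genes of receptor shedding, which frees soluble IL-6 receptor from cells, 0 were past the threshold of edgeR (DESeq2 called 0, and 2 were under an unadjusted p of 0.05). Adam17, the main sheddase, stood at 28.4, 45.1 and 42.6 CPM in the control and 63.1, 58.1 and 62.8 CPM in the knockout, without overlap (log2 fold change 0.66 ± 0.20, SE; edgeR, adjusted p = 0.166). Rhbdf2, which escorts ADAM17 to the surface, had 0.44 ± 0.15 and Adam10 -0.18 ± 0.21.

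Of 21 genes known as STAT3 targets, 4 rose and 0 fell, beside 1.09% and 0.67% of all genes tested. The median log2 fold change was 0.93 over the list and 0.01 over all genes tested. Lrg1, a secreted glycoprotein of the acute phase, stood at 3.58, 3.88 and 1.82 CPM in the control and 70.8, 21.3 and 50.1 CPM in the knockout (log2 fold change 3.93 ± 0.53, SE; edgeR, adjusted p = 0.0252). Il4ra, the IL-4 receptor chain, stood at 83.2, 102.8 and 83.3 CPM in the control and at a nearly level 158.4, 155.8 and 151.2 CPM in the knockout (0.79 ± 0.14, adjusted p = 0.0497). Lcn2 and Saa3, proteins of the antibacterial and acute-phase response, rose by 7.55 ± 0.98 and 5.53 ± 0.79 on the log2 scale (SE). Leaving out knockout replicate 3 or any 1 control library ended all 4 calls. In all, 11 of 21 targets were under an unadjusted p of 0.05, beside 16.0% of all genes tested. Of them, 7 missed the threshold with all libraries. Of these, Cebpb, Cebpd, Timp1, Hp, Pim1 and Junb had log2 fold changes of 1.99, 2.25, 2.95, 3.65, 1.23 and 0.93, and Vegfa had -0.44.

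Over the whole list, 15 log2 fold changes were positive and 6 negative, the latter those of Fos, Vegfa, Bcl2l1, Birc5, Ccnd1 and Myc (-0.49 to -0.01). Reg3b and Reg3g, lectins that the epithelium secretes against bacteria, ran against the order of Il6: Reg3g stood at 855.8, 451.5 and 444.1 CPM in the control and 87.0, 3693 and 1986 CPM in the knockout. Knockout replicate 1, highest for Il6 and Socs3, was there below every control library, and knockout replicate 2 was far above them. The log2 fold changes were 1.72 ± 1.07 for Reg3g and 1.63 ± 1.09 for Reg3b (SE; edgeR, adjusted p = 0.5 and 0.527). Epithelial markers had their lowest level in knockout replicate 1 and their highest in replicate 2, as given above, and their part was not tested.

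**Figure D4:**
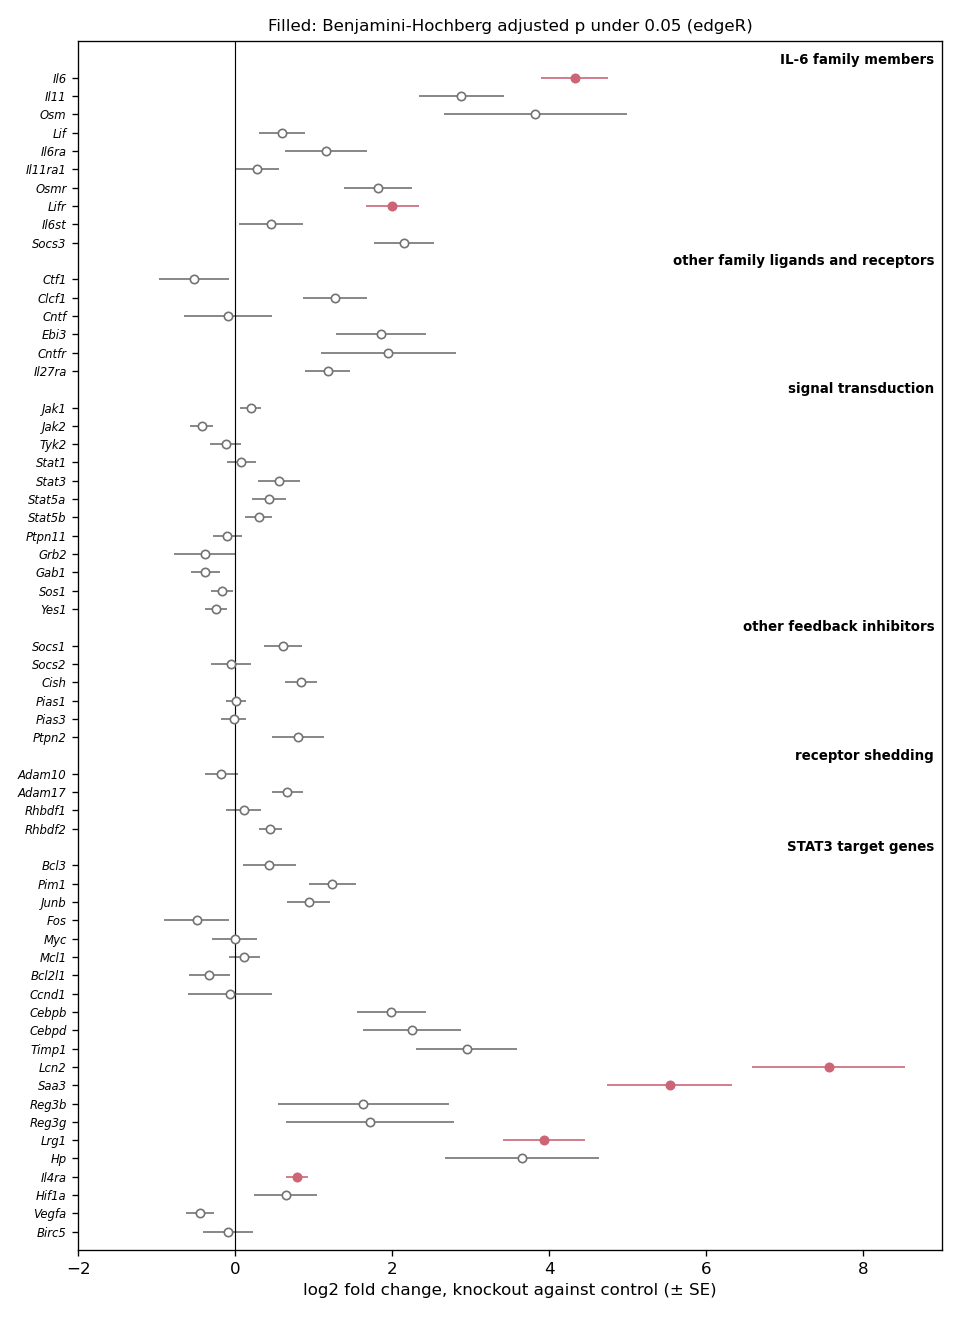
Log2 fold change, knockout against control, with its SE for the 10 member genes and the genes of 5 pathway lists that passed the filter on low counts; filled symbols have an adjusted p under 0.05 (edgeR, all 6 libraries). Filled symbols are Il6 and Lifr among the members and Lcn2, Saa3, Lrg1 and Il4ra among the STAT3 targets, and the signal transduction genes lie between -0.43 (Jak2) and 0.55 (Stat3).

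The genes with profiles nearest to Il6 and Il11 were sought among 13993 genes with a mean of at least 1 CPM. Predicted gene models, such as those with Gm or Rik names, were left out. Nearness was the root mean square difference of log2(CPM + 0.5), centred on the control mean, over the 6 libraries. Nearest to Il6 were Lrg1 (0.271 log2 units), Hist2h2bb (0.297) and F10, coagulation factor X (0.381). Nearest to Il11 were Tnfaip2 (0.209), Angptl4, an inhibitor of lipoprotein lipase (0.252), and Fpr1, the formyl peptide receptor of neutrophils (0.274). Tnfaip2 stood at 4.14, 14.5 and 9.12 CPM in the control and 79.6, 24.3 and 56.2 CPM in the knockout. Where control levels are near 0.5 CPM or below, the added 0.5 sets much of the difference. By edgeR, the log2 fold change was 9.60 for Hist2h2bb against 4.32 for Il6. It was 4.13 for Fpr1 against 2.88 for Il11. Hist2h2bb had 0 reads in the control and 278 in the knockout libraries. It is a histone gene, and since histone genes have near-identical copies its value is uncertain.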

How the data were processed

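Whole-colon-tissue RNA was sequenced in 3 control and 3 knockout libraries. The read counts and FPKM values were deposited by the authors in a single table, per the file headers; the counts are whole numbers and not normalized, and the FPKM values are scaled by gene length and library total. Software listed in the submitters' processing notes, with roles unstated, is StringTie 1.3.0, edgeR and HISAT2 2.0.4. The notes also name builds that the coordinates do not match: of 34267 gene identifiers found in GENCODE M21 (GRCm38), 80.8% had the same start and end, and printed gene positions are those of the table (GRCm38). No source used here gives strand or multi-mapping settings.

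Counts were tested with edgeR 4.0.16 in R 4.3.3 (TMM, edgeR's filter on low counts, quasi-likelihood test, two-sided, Benjamini-Hochberg over 15819 genes, threshold 0.05), and p-values were never adjusted over the members alone. Each SE is the fold change divided by the root of its F statistic. With 3 libraries a group, exact permutation could give no p under 0.1, so none was run. Also tried were limma 3.58.1 on log2(FPKM + 1) and log2(FPKM + 0.1), DESeq2 1.42.0, size factors by RLE, all genes unfiltered, the replicate number as a block, and each library left out in turn. The tests were checked on simulated counts drawn independently for each library, so that check does not cover libraries that share material.

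A symbol with several rows was represented by the row with the most reads. Genes named are the members, of each pathway list those past the threshold or the 3 with the smallest p, and the 3 nearest profiles of Il6 and Il11; others (Reg3b, Reg3g, the STAT3 targets that were not called, Ctf2, Il31 and single cell type markers) were named after their values were seen. The members and lists were chosen with earlier results of these data known. Intervals and floors cover counting error only.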

Additional observations from a re-analysis of the deposited data

How the results depend on the processing

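The 10 members kept a positive log2 fold change under every alternative run. Of 120 values of single members under the alternatives, 97 stayed on their side of the threshold, 12 lost a call and 11 gained one. The count of all genes past the threshold, 278 in the main test, was 1453 with DESeq2, 9 with the replicate block and 15 to 1825 as single libraries were left out (15 and 1825 on leaving out knockout replicate 3 and 2, and 31, 20 and 29 on leaving out control replicates 1, 2 and 3). The members past it, 2 in the main test, numbered 6 with DESeq2, 4 without the filter on low counts, 1 with limma at either pseudocount (Il6 each time), 0 with the replicate block and 0 to 7 as single libraries were left out (7 on leaving out knockout replicate 2). The STAT3 targets past it, 4 in the main test, numbered 10 with DESeq2, 0 with the block and 0 to 10 as libraries were left out. Other family genes numbered 1 with DESeq2 and with limma on log2(FPKM + 1), and 0 to 3 as libraries were left out. Other feedback inhibitors numbered 1 with DESeq2 and 0 to 2. Signal transduction and shedding genes stayed at 0 as libraries were left out. Il6 had adjusted p = 0.00252 to 0.0881 and log2 fold changes of 4.05 to 4.55 as libraries were left out, and Lifr 0.0204 to 0.204 and 1.68 to 2.22. The cause was not tested. Same-numbered libraries are not said to be paired, and their deviations from the group means correlated across genes at 0.0503, -0.17 and -0.00462, so the replicate block, under which Il6 had adjusted p = 0.0674 and Lifr 0.122, rests on a number alone; not every library correlated best with its own number. Osm and Il6 in the control had under 15 reads per library, which limits their folds.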
